A study of Homo sapiens with 3 samples.

Results

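The replication-dependent histone genes are the multicopy genes that supply histone proteins to newly made DNA. They were chosen by symbol, as protein-coding genes named H1-1 to H1-6 or named with H2AC, H2BC, H3C or H4C and a number. The rule found 60 of the 26108 genes in the expression table, made up of 6 H1, 14 H2A, 15 H2B, 13 H3 and 12 H4 genes. By the coordinates in the table, which match GRCh38, 30 of them lay in chr6:26017032-26285638, 20 in chr6:27125897-27893891 and 10 in chr1:149782689-149887411.

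H2A, H2B, H3 and H4 form the protein core around which DNA is wrapped, and H1, the linker histone, binds where the DNA enters and leaves it. The genes of these clusters are transcribed mostly in S phase, lack introns as a rule, and give mRNAs that end in a conserved stem-loop instead of a poly(A) tail. The stem-loop is bound by SLBP, and some gene copies can also give a longer, polyadenylated transcript.

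The samples were LX-2 cells, an established line of human hepatic stellate cells, which are the vitamin A-storing cells of the liver that turn into matrix-producing fibroblasts. The question was how recombinant human FGF19 (rhFGF19), a hormone-like fibroblast growth factor, changes the mRNAs of these cells. One culture received vehicle, one rhFGF19 at 50 ng/mL and one rhFGF19 at 100 ng/mL, each for 24 h by the design text and the study. The sample descriptions exchange both doses and give 72 h and 73 h, and the doses here follow the sample titles and the column names. No other agent or genetic change is given for any of the 3 groups, and all of them come from 1 cell line. Each group was 1 library, so no value has a replicate, no test was possible, and every difference is between single libraries. RNA was captured on poly-T beads, so the part of each histone mRNA pool without a poly(A) tail was selected against to a degree that was not measured.

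Values are FPKM, a read count divided by transcript length and by library size, and a series of 3 values is always in the order vehicle, 50 ng/mL and 100 ng/mL. Log2 fold changes against vehicle were taken after adding 0.1 FPKM, so those of genes with low values are understated. Of the stellate cell markers, VIM was at 439, 654 and 649 FPKM and COL1A1 at 78.4, 108 and 104 FPKM, TIMP1 was at 308, 184 and 193 FPKM and THY1 at 29.7, 20.6 and 21.1 FPKM, and ACTA2 was between 7.74 and 8.55 FPKM, while COL1A2, DES and LUM were at 0.14 FPKM or lower in every library. Of markers of other cell types, the epithelial keratin KRT8 was at 121, 81.9 and 78.5 FPKM, with KRT19 and CDH1 at 0.11 FPKM or lower. The hepatocyte gene SERPINA1 was at 8.93, 9.62 and 9.11 FPKM and ALB at 2.16, 2.49 and 1.89 FPKM, the macrophage marker CD68 at 47.5, 44.2 and 39.8 FPKM, and the 3 endothelial markers summed to 0.5, 0.4 and 0.47 FPKM. At a mean of at least 0.5 FPKM, 12447 genes were kept, and the median fold change over them was 0.62 and 0.61 (log2) for the 2 doses. Over these genes the fold change followed transcript GC content, with a Spearman coefficient of -0.77 at either dose, so each histone value below stands beside a trend that ran across the whole table.

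The stem-loop is shown first because it is the shared 3′ end that sets these mRNAs apart. It was searched within 150 bases after the stop codon in GENCODE v29 transcripts as 16 bases on the transcript's strand: 2 arms of 6 bases that pair with at most 1 mismatch, the first opening with GG and the second closing with CC, around a loop of 4 bases that opens with TT. Capitals mark the stem, and the sequences are written as DNA, 5′ to 3′.
H2AC18, H2AC19, H2AC6, H2AC8, H2BC21 and 10 other members: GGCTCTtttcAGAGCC
H4C8, H4C11, H4C5 and H4C2: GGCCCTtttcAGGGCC
H2BC5, H2BC4, H2BC7 and H3C8: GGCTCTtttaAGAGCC
H4C9, H4C14 and H4C15: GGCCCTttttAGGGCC
H2AC11: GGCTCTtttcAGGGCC
Of 28 members with at least 60 annotated bases after the stop codon, 26 (92.9%) held a stem-loop, against 55 of 17603 other protein-coding genes (0.312%). H2BC11 and H3C6 were the exceptions. A shorter annotated end held 1 more, and 28 members, with H1-2 and H2BC12 among them, have no annotated base after the stop codon and could not be searched. The 5 sequences differed in the fourth base pair of the stem, counted from its open end, and in the last loop base. The H4 genes had a C and G pair at that place and the H2A, H2B and H3 genes a T and A pair, but H2AC11 joined the left arm of the latter to the right arm of the former.

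Promoters are shown for H2BC12, the core histone gene with the highest level, and for H2AC6, whose level was about 2 times as high with rhFGF19. The windows run from 250 bases before to 50 after the start in RefSeq, GRCh38.p14, which had 55 of the 60 members (not H3C11, H3C12, H4C1, H4C3 and H2AC12). Capitals mark the letters TATAAA of a TATA box, the letters CCAAT of a CCAAT box and the letters ATTTGCAT of an octamer on either strand, and overlapping matches are counted separately.
H2BC12, chr6:27146806-27147105, minus strand: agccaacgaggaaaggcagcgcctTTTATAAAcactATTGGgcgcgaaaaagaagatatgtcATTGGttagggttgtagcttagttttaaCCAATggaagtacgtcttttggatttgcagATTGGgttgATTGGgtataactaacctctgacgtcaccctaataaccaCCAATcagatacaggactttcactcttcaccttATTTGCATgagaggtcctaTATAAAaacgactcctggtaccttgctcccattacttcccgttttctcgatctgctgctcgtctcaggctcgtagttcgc
H2AC6, chr6:26123922-26124221, plus strand: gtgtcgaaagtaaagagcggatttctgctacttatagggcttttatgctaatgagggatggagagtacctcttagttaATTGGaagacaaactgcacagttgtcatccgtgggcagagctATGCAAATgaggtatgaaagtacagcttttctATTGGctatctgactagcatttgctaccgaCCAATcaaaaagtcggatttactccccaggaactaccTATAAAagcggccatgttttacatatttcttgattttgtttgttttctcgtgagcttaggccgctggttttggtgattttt
The H2BC12 window held 10 matches and the H2AC6 window 5. TATAAA was in 37 of 55 member windows (67.3%) and in 12.0% of 27305 promoters, and CCAAT was in 47 (85.5%) and in 35.7%. The CCAAT box divided the classes: every H1, H2A, H2B and H3 window held it, and 2 of 10 H4 windows did. The octamer was in 9 of 13 H2A windows and 12 of 15 H2B windows, in no H1, H3 or H4 window, and in 1.80% of all promoters. Windows of an H2A and an H2B gene that start back to back overlap. The same octamer can therefore count for both, as it does for H2AC6 and H2BC4. A match is a run of letters and says nothing of binding in these cells.

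Histone mRNA levels were very uneven between copies. No member was at 0 in all 3 libraries, 13 were at 0 in at least 1, and 24, 27 and 23 members reached 1 FPKM. The 60 members summed to 684, 588 and 632 FPKM, log2 ratios to vehicle of -0.22 and -0.11. The sign with 100 ng/mL turned to 0.03 with quantile normalization and to 0.02 with the GC trend removed, and both were positive, at 0.19 and 0.24, once GC and length trends were removed. In bulk RNA, fewer cells in S phase and less histone RNA per cell cannot be told apart. Most of the sum came from 2 genes: H1-2 and H2BC12 made up 65.4%, 67.1% and 67.3% of it, and with H2AC18, H2AC19 and H2BC11 the share was 86.5%, 81.7% and 82.6%.

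**Figure D1:**
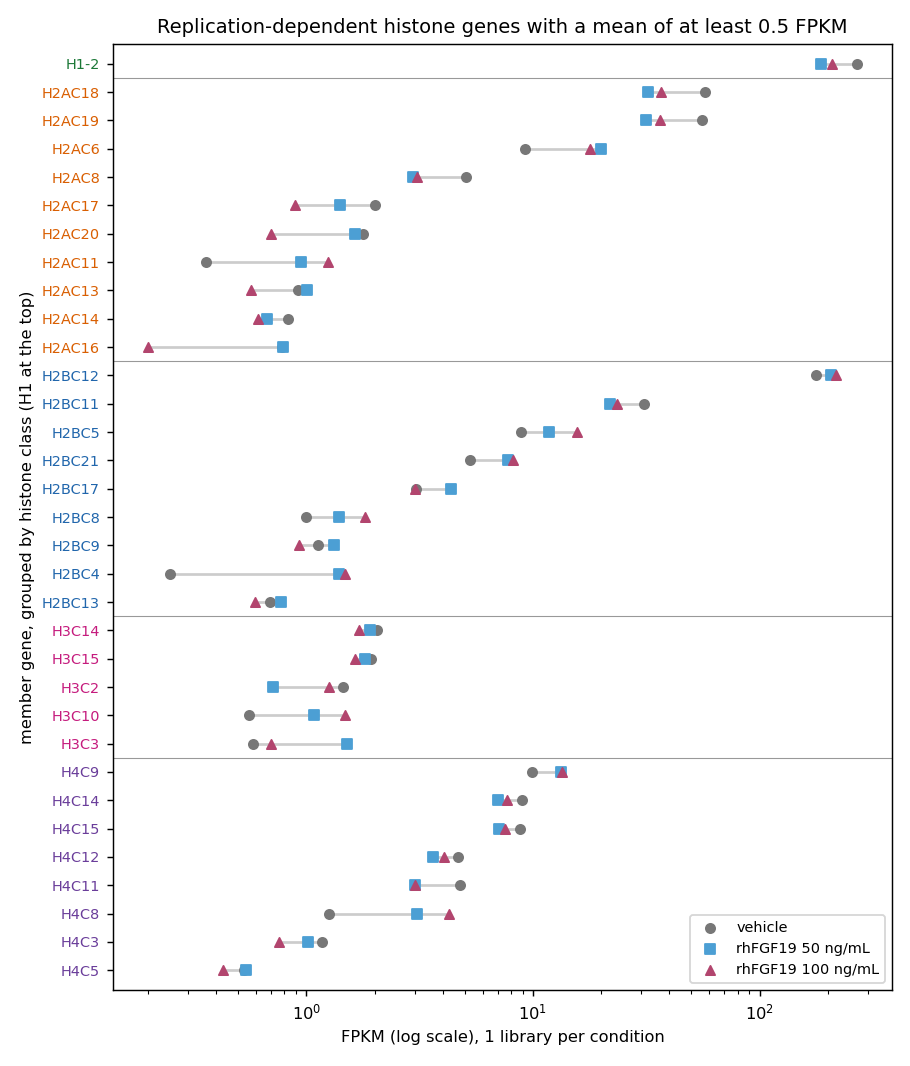
FPKM on a log axis for the 33 histone genes averaging 0.5 FPKM or more, grouped by class, with a circle for vehicle, a square for rhFGF19 50 ng/mL and a triangle for rhFGF19 100 ng/mL (1 library each). H1-2 and H2BC12 stand near 200 FPKM and most other members below 10 FPKM, and the vehicle point lies to the right for H1-2, H2AC18 and H2AC19 and to the left for H2AC6, H2BC4 and H4C8.

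The mean of 0.5 FPKM was reached by 33 members: 1 H1, 10 H2A, 9 H2B, 5 H3 and 8 H4 genes. The lowest of them, H4C5, had a mean of 0.5 FPKM and the highest of the 27 others, H3C8, one of 0.497 FPKM, so the limit does not mark a gap. At 50 ng/mL, 5 of the 33 (15.2%) were more than 2-fold higher than vehicle, where 39.4% of all genes kept were. None of the 33 was more than 2-fold lower with 50 ng/mL, where 1.78% of all genes kept were. At 100 ng/mL, 4 members (12.1%) were more than 2-fold higher, against 38.5%, and 3 (9.09%) more than 2-fold lower, against 1.58%. The genes were H4C8, H2BC4 and H2AC11 at either dose, H2AC6 and H3C3 with 50 ng/mL and H3C10 with 100 ng/mL on the higher side, and H2AC20, H2AC16 and H2AC17 on the lower side.

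These counts depended on the scaling. With quantile normalization 1 member was higher and 6 lower with 50 ng/mL, and 1 and 14 with 100 ng/mL, where 9.49% and 9.95% of all genes kept were higher and lower with 50 ng/mL, and 8.68% and 9.22% with 100 ng/mL. With the GC trend removed, 2 were higher and 3 lower with 50 ng/mL, and 1 and 5 with 100 ng/mL, beside 3.85% and 5.07%, and 3.39% and 4.51%, of all genes. The median log2 fold change of the 33 was 0.016 with 50 ng/mL and -0.22 with 100 ng/mL, against 0.62 and 0.61 over all genes kept. The sign with 50 ng/mL turned to negative when the median ratio of expressed genes was set to 0 (-0.19), with quantile normalization (-0.65) and when the GC trend (-0.21), the length trend (-0.31) or both (-0.023) were removed. Above vehicle were 17 members with 50 ng/mL and 11 with 100 ng/mL, 11 of them at either dose, while 65.4% and 65.6% of all genes kept were above vehicle. Both comparisons share the vehicle library, so their values are set side by side and not counted as 2 observations.

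H1-2, a linker histone of the chromosome 6 cluster (ENSG00000187837, chr6:26055740-26056470, minus strand), had the highest level of all members. It was at 269, 188 and 209 FPKM, highest in vehicle and lowest with 50 ng/mL. Its log2 fold changes were -0.52 and -0.37, and they stayed negative under each scaling tried, from -1.01 to -0.061. The other 5 H1 genes had means of 0.28 FPKM or lower, and H1-6, the testis form, was at 0, 0 and 0.08 FPKM. H1-2 therefore made up 99.8%, 99.5% and 99.6% of the H1 sum of 270, 189 and 210 FPKM.

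H2A genes code for the core histone that pairs with H2B. The class summed to 135, 92.9 and 98.8 FPKM, and its log2 ratios of -0.54 and -0.45 stayed negative under each scaling tried. Most of that difference lay in 1 duplicated gene: H2AC18 was at 57.3, 32.1 and 36.9 FPKM and its copy H2AC19 at 55.7, 31.4 and 36.2 FPKM. The coding sequences of this pair (chr1:149842188-149842736, minus strand, and chr1:149851061-149851624, plus strand) are identical, so reads of one cannot be told from reads of the other. Vehicle was the highest library for both, with log2 fold changes of -0.83 and -0.63 for H2AC18, negative under each scaling tried. H2AC8 shared the order, at 5.06, 2.94 and 3.07 FPKM.

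H2AC6 differed in direction from these. It was at 9.22, 19.9 and 17.8 FPKM, with vehicle lowest and log2 fold changes of 1.10 and 0.94, which turned to -0.32 and -0.47 once the GC trend was removed. Its annotated transcripts had a GC content of 42.0%, against 61.7% for H2AC18. These values are of the annotated forms, with a median length of 1654 bases for H2AC6 and 549 for H2AC18. Which forms were sequenced was not measured. H2AC11 was also lowest in vehicle, at 0.36, 0.95 and 1.24 FPKM (log2 fold changes 1.19 and 1.54), and its fold changes were 0.078 and 0.45 once the GC trend was removed.

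The members that were lower with 100 ng/mL were of low level. H2AC17 was at 2, 1.4 and 0.89 FPKM, and H2AC20 at 1.77, 1.64 and 0.7 FPKM. H2AC16 was at 0.78, 0.79 and 0.2 FPKM. H2AC13 was at 0.92, 1.01 and 0.57 FPKM, also lowest with 100 ng/mL, where H2AC17, H2AC20 and H2AC16 had log2 fold changes of -1.08, -1.22 and -1.55. With the GC trend removed these were -0.69, -0.79 and -1.09. H2AC17 shares bases on the same strand with H3C12 and H2AC16 with H2BC15, so reads there could be given to either gene. The remaining H2A genes had means from 0.017 to 0.703 FPKM.

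H2B genes code for the partner of H2A. They were the class whose sum was higher than vehicle at both doses: 230, 259 and 273 FPKM, log2 ratios of 0.17 and 0.25, of which the first turned to -0.055 when the median ratio of expressed genes was set to 0. H2BC12 (ENSG00000197903, chr6:27146361-27146855, minus strand) made up 77.6%, 79.97% and 79.5% of it, at 178, 207 and 217 FPKM. Vehicle was its lowest library, by a log2 fold change of 0.22 and 0.28, and the first of these turned to -0.011 with the median ratio set to 0. H2BC11 had the opposite order, with 31, 21.9 and 23.5 FPKM and log2 fold changes of -0.50 and -0.40 that were negative under each scaling tried.

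Of the other H2B genes kept, vehicle was the lowest library for H2BC5, H2BC21, H2BC8 and H2BC4. H2BC5 was at 8.85, 11.8 and 15.7 FPKM, H2BC21 at 5.25, 7.79 and 8.14 FPKM and H2BC8 at 1, 1.39 and 1.82 FPKM. With 50 ng/mL these 3 were below the GC trend of all genes (-0.29, -0.44 and -0.47). With 100 ng/mL H2BC5 was above it (0.14), and H2BC21 and H2BC8 were below it (-0.36 and -0.093). H2BC4 had the highest fold change of any member kept. It was at 0.25, 1.39 and 1.48 FPKM, with log2 fold changes of 2.09 and 2.17, and of 1.47 and 1.58 after the GC trend was removed. H2BC17 was at 3.05, 4.34 and 3.01 FPKM and H2BC9 at 1.12, 1.33 and 0.93 FPKM, so for both the 50 ng/mL library was highest. The H2B genes below 0.5 FPKM had means from 0.073 to 0.217 FPKM.

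H3 genes code for the histone whose tail carries many of the known chromatin marks, and the 13 of them code for 2 proteins. Their sum was low, at 8.28, 8.2 and 9.98 FPKM, log2 ratios of -0.014 and 0.27, of which the second turned to -0.60 with quantile normalization. H3C14 was at 2.04, 1.9 and 1.7 FPKM, and H3C15, whose coding sequence is identical, at 1.92, 1.82 and 1.63 FPKM. Both overlap an H4 gene on the other strand, and whether the counting used strand is not given in the sources used here. H3C2 was at 1.45, 0.71 and 1.26 FPKM, lowest with 50 ng/mL. H3C3 had the reverse order, at 0.58, 1.51 and 0.7 FPKM, and H3C10 was lowest in vehicle, at 0.56, 1.08 and 1.48 FPKM. The log2 fold change of H3C10 with 100 ng/mL was 1.26, and 0.40 once the GC trend was removed. The other 8 had means from 0.017 to 0.497 FPKM.

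H4 genes all code for 1 protein of 103 residues, so copies that differ in level do not differ in product. The class sum was 41.1, 39.2 and 41.4 FPKM, and H4C9 led it with 9.95, 13.3 and 13.4 FPKM, lowest in vehicle. The log2 fold changes of H4C9, 0.42 and 0.43, became -0.70 and -0.67 once the GC trend was removed. Medians of the 8 H4 genes kept were -0.25 and -0.22, and -0.68 and -0.60 with the trend removed. H4C14 was at 8.94, 7.03 and 7.67 FPKM and its copy H4C15 at 8.8, 7.05 and 7.56 FPKM, both highest in vehicle. The pair H4C11 and H4C12, with identical coding sequences, shared that order, at 4.75, 3.02 and 3.02 FPKM and at 4.66, 3.63 and 4.03 FPKM. H4C8 stood apart from these, at 1.26, 3.07 and 4.27 FPKM, with vehicle lowest and log2 fold changes of 1.22 and 1.68. After the GC trend was removed these were -0.099 and 0.38. H4C3 was at 1.17, 1.02 and 0.76 FPKM and H4C5 at 0.53, 0.54 and 0.43 FPKM. Of the members below the limit H4C4 was at 0.86, 0.15 and 0.15 FPKM.

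In 8 pairs an H2A and an H2B gene start back to back, 218 to 291 bases apart, and so share the DNA between them. Their levels were unequal. H2BC12 was at 178, 207 and 217 FPKM while H2AC12, which starts 250 bases away, was listed at 0.36, 0 and 0 FPKM. H2BC11 was at 31, 21.9 and 23.5 FPKM and H2AC11 at 0.36, 0.95 and 1.24 FPKM, a ratio of 86.1, 23.1 and 18.98. In the pair whose shared promoter is printed above, H2AC6 exceeded H2BC4 by 36.9, 14.3 and 12.0 times. In these 3 of the 8 pairs the mean levels differed more than 10-fold, and in 6 of 8 the same gene was higher in all 3 libraries. H2BC13 and H2AC13 were close to each other, at 0.69, 0.77 and 0.59 FPKM and at 0.92, 1.01 and 0.57 FPKM.

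Annotated transcript ends divided the members in another way. GENCODE v29 gives 18 of the 60 members, H2AC6, H2AC11, H2BC11 and H2BC21 among them, a transcript that runs at least 350 bases past the stop codon, and 16 of these end with AATAAA or ATTAAA in the last 40 bases. The 12 of them that were kept had median log2 fold changes of 0.32 and 0.20, and all 18 had a median GC content of 48.9%. The 21 kept without such an end had -0.18 and -0.37, and all 42 members without it had a GC content of 59.9%. Of these 42, 28 have no annotated base after the stop codon. Their ends are missing from the annotation and are not shown to be short, and their GC content leaves these ends out. The split and its gap in GC content therefore depend in part on which ends are annotated. After the GC trend was removed, the medians were -0.38 and -0.23 with the long end and -0.073 and -0.23 without it, so with 50 ng/mL their order was turned and with 100 ng/mL the gap was no longer seen. In sums, the members with a long annotated end were at 71.5, 78.8 and 83.6 FPKM and the others at 613, 509 and 549 FPKM. The others include the member with the highest level, for which no end is annotated.

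GC content moved with the fold change inside the group as well. The 33 members kept had a median GC content of 57.2%, from 41.6% to 64.1%, against 51.2% over all genes kept, and a median transcript length of 564 bases against 1155.5. Across them Spearman's coefficient of GC content with the log2 fold change was -0.52 with 50 ng/mL and -0.60 with 100 ng/mL, over 33 genes that come from the same 3 libraries and are not independent. Relative to the trend of all genes the members had a median of -0.21 and -0.23, and all genes kept had 0.0080 and 0.0052. At either dose 13 of 33 members lay above the trend, and the share of all genes kept above it was not counted. H2BC4 lay furthest above it with 100 ng/mL, by 1.58, and H2BC9 furthest below, by -1.66. With 50 ng/mL H3C3, with a mean of 0.93 FPKM, lay furthest above it, by 1.56, and with 100 ng/mL by 0.54. H2BC11 lay -1.38 and -1.26 from the trend, and H2BC12 0.60 and 0.65. GC content here is that of the annotated transcripts, which for 28 members hold no base after the stop codon. Values with the trend removed therefore depend on which forms are annotated. The part of GC content in the histone values was not tested.

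The libraries at 50 and 100 ng/mL were compared with each other to see how far single members vary without vehicle. The log2 difference had an SD of 0.49 over the 33 members and of 0.34 over all genes kept. More than 2-fold apart were H2AC20, H2AC16 and H3C3, 3 of 33 (9.09%) against 1.74% of all genes kept, and all 3 have a mean under 2 FPKM. The absolute difference had a median of 0.38 over the 17 members from 0.5 to under 2 FPKM, of 0.11 over the 8 from 2 to under 10 FPKM and of 0.16 over the 8 at 10 FPKM or above. All genes kept had 0.18, 0.090 and 0.051 at these levels. No vehicle library enters these differences, so they do not measure the spread of a fold change against vehicle.

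The genes that make and handle histone mRNA and protein were listed beside the members. Of 16 genes of histone mRNA 3′ processing and decay, all kept, 8 were more than 2-fold higher with 50 ng/mL and 9 with 100 ng/mL, beside 39.4% and 38.5% of all genes kept, and none was lower by that much. SLBP, which binds the stem-loop, was at 10.2, 23.4 and 21.9 FPKM, lowest in vehicle. The cap-binding subunits NCBP1 and NCBP2 were at 1.48, 5.68 and 5.54 FPKM and at 2.59, 5.68 and 6.11 FPKM. CPSF3, the nuclease that cuts histone pre-mRNA, was at 1.09, 3.91 and 3.73 FPKM, its partner CPSF2 at 0.58, 2.46 and 2.13 FPKM, and the U7 snRNP-linked zinc finger gene ZNF473 at 0.7, 2.73 and 2.67 FPKM. The uridyl transferases TUT7 and TUT4, which act in histone mRNA decay, were at 0.61, 1.7 and 1.69 FPKM and at 0.3, 0.85 and 0.9 FPKM. In contrast LSM10, a U7 snRNP protein, was at 41.5, 24.2 and 26.02 FPKM, and the scaffold gene SYMPK at 25.9, 21.3 and 20.8 FPKM, both highest in vehicle. SRRT and UPF1 were at 31.4, 36.1 and 35.3 FPKM and at 20.3, 23.4 and 22.6 FPKM. The list had medians of 0.87 and 1.10, and of -0.062 and -0.043 after the GC trend was removed.

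Of the 8 genes of histone gene transcription, 7 were kept, with 5 more than 2-fold higher with 50 ng/mL and 4 with 100 ng/mL, beside the same 39.4% and 38.5%. The list's medians were 1.12 and 1.06, and 0.13 and 0.035 after the GC trend was removed. NPAT, the coactivator of the histone clusters, was at 0.39, 1.43 and 1.49 FPKM. CASP8AP2, a protein of the same nuclear body, was at 0.35, 1.2 and 1.19 FPKM, and GON4L at 0.9, 2.07 and 1.98 FPKM. CCNE2, a cyclin for the kinase that acts on NPAT, was at 0.46, 1.66 and 1.24 FPKM. The kinase itself, CDK2, was at 11.2, 23.6 and 20.7 FPKM and the cyclin CCNE1 at 8.83, 14.3 and 14.7 FPKM. HINFP, a factor for H4 promoters, was highest in vehicle, at 6.03, 4.65 and 4.64 FPKM.

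The 12 histone genes listed as replication-independent, which as a rule give polyadenylated mRNAs, summed to 938, 917 and 938 FPKM. H2AX was at 353, 232 and 233 FPKM and H1-10 at 144, 90.3 and 90.7 FPKM, both highest in vehicle. H2AZ1 was at 263, 318 and 342 FPKM, lowest in vehicle. H3-3B was at 61.2, 86.6 and 86.7 FPKM. H3-3A, which codes for the same H3.3 protein, was the only one of the 12 more than 2-fold higher (39.4% and 38.5% over all genes kept), at 3.47, 11.8 and 11.3 FPKM. The list's medians were 0.49 and 0.54, below those of all genes kept, and 3 of 12 were below vehicle at either dose. After the GC trend was removed the medians were -0.066 and -0.041.

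Histone chaperones and S phase genes held both directions. Of 20 chaperone and assembly genes, 19 were kept and 10 were more than 2-fold higher at either dose, where 39.4% and 38.5% of all genes kept were. Their medians of 1.06 and 1.02 became 0.26 and 0.27 once the GC trend was removed. ASF1A was at 0.82, 2.97 and 3.27 FPKM while its paralogue ASF1B was at 115, 83.2 and 86.8 FPKM, and ATRX was listed at 0 in each library. Of 18 S phase genes 10 were more than 2-fold higher with 50 ng/mL and 9 with 100 ng/mL, beside the same shares of all genes, with PCNA at 36.8, 90.4 and 83.5 FPKM. TK1 was at 326, 206 and 204 FPKM and MCM7 at 231, 182 and 176 FPKM, both highest in vehicle. The S phase medians of 1.06 and 1.01 became 0.091 and 0.070 once the GC trend was removed.

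RNAs that have no poly(A) tail were listed because most histone mRNA shares that property. Of 14 such RNA genes 7 were in the table and 5 kept, with none more than 2-fold higher and 2 lower by that much with 50 ng/mL and 1 with 100 ng/mL, beside 1.78% and 1.58% of all genes kept. Their median GC content was 62.9%, and their medians of -0.80 and -0.47 became -0.35 and -0.22 once the GC trend was removed. RN7SL1, the RNA of the signal recognition particle, was at 45.9, 26.3 and 29.2 FPKM and its copy RN7SL2 at 37.4, 12.0 and 14.6 FPKM. RN7SK was at 13.9, 5.83 and 9.98 FPKM, so vehicle was the highest library for all 3. RPPH1 was at 2.47, 1.58 and 3.39 FPKM and RMRP at 2.42, 2.06 and 2.16 FPKM. Of the 33 histone genes kept, 16 were below vehicle at both doses and 11 above it at both. Of all genes kept, 65.4% were above vehicle with 50 ng/mL and 65.6% with 100 ng/mL, and their share on the same side at both doses was not counted. How much RNA without a tail passed the bead step in each library was not measured, and its part in the histone values was not tested.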

How the data were processed

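The authors deposited 1 table of FPKM per gene, with 1 column for each of the 3 libraries. Per the labels, poly(A) RNA was captured on poly-T beads and sequenced with inserts near 300 bp, and the study mapped reads with HISAT2. The submitters' processing notes name HISAT2 2.0, StringTie 1.3.0 and Bowtie 0.12.2 and the builds hg19 and mm8, without roles. In the table, 99.8% of 25531 identifiers overlap their GENCODE v29 position on GRCh38, so coordinates are read as GRCh38. The annotation release is not given in the sources used here. Read depth is unknown: values have 2 decimals, and no steps of single reads were seen.

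Genes were kept when their mean over the 3 libraries reached 0.5 FPKM, and log2(FPKM + 0.1) was compared with Python 3 (pandas, NumPy, statsmodels). With 1 library per group there was no test. Transcript length and GC content are medians over the GENCODE v29 transcripts listed for each gene, and were found for 99.6% of genes kept. Trends were removed by loess (span 0.3). The steps were tested on simulated data. Stem-loops were searched in GENCODE v29 transcripts, where a genome had been planned, and promoters come from RefSeq.

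The members and lists were chosen with earlier results of these data known. Named with values are members with a mean of at least 0.5 FPKM, at most the 8 highest per class, and, of each list, the 5 highest and the genes past 2-fold in both rhFGF19 libraries. For chaperones and S phase genes this is shortened to counts and examples chosen after their values were seen, as were the markers shown, H1-6, H3C8, H4C4 and genes named for a pair or a call. A gene that the rule names is not reported here. Alternatives were pseudocounts of 1 and 0.01, no filter, a mean of at least 1 FPKM, median-ratio, TPM and quantile scaling, removal of GC and length trends, and leaving out near-identical copies.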

Additional observations from a re-analysis of the deposited data

How the results depend on the processing

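No paired analysis was possible because each group was 1 library. Under 11 alternatives, 118 list and class values moved by less than the spread used (0.49 on the log2 scale, or 1.5 times for counts) and 33 moved by more. For 30 members taken singly, 230 fold changes moved by less and 125 by more. Another 5, each past 2-fold as deposited, changed sign. With a pseudocount of 1, 1 member was more than 2-fold higher at either dose, beside 17.6% and 16.7% of all genes kept. At that pseudocount 0 were lower with 100 ng/mL (0.506% of all genes) and 0 apart between the rhFGF19 libraries. With 0.01, 1 was lower with 50 ng/mL (2.03% of all genes). Without the filter 10 of 60 members were higher and 3 lower with 50 ng/mL, beside 26.6% and 3.17% of all genes. With 100 ng/mL 9 and 6 were, beside 26.3% and 3.18%, and 13 were apart between the rhFGF19 libraries. At a mean of at least 1 FPKM, 3 of 25 members were higher with 50 ng/mL (37.9% of all genes) and 1 apart. With the median ratio to vehicle set to 0, 2 were higher and 3 lower with 50 ng/mL, beside 30.4% and 6.29% of all genes. Quantile normalization gave 1 and 6 with 50 ng/mL with a median of -0.65, 1 and 14 with 100 ng/mL, and H3 sums of -0.89 and -0.60. Removing the GC trend gave 2 and 3 with 50 ng/mL and 1 and 5 with 100 ng/mL, and turned H2AC6 (-0.32) and H4C8 (-0.099) with 50 ng/mL. Removing the length trend gave 2 and 5, and 2 and 6, beside 14.1% and 16.4%, and 13.6% and 15.3%, of all genes. Removing GC and then length, chosen after seeing the data, gave 2 lower with 50 ng/mL (4.05% of all genes) and 2 higher with 100 ng/mL (3.53%). It gave H2B sums of 0.82 and 0.80, and turned H2AC6 (-0.34), H4C8 (-0.023) and H2AC11 (-0.016) with 50 ng/mL. The cause of these moves was not tested. The median of all genes kept was 0.62 with 50 ng/mL as deposited, 0.40 with the median ratio set to 0, 0.77 as TPM, 0.11 with quantile normalization and 0.0080 with the GC trend removed. With 1 library per group, unknown depth, and reads shared between near-identical copies, values of members below 2 FPKM are the least certain.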
